A study of Mus musculus with 4 samples.

Results

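The miRNAs described here come from 3 imprinted loci of the mouse, and were taken as every row of the deposited table named miR-335 (the Mest locus), miR-296 (the Nespas and Gnas locus), miR-675 (the H19 locus) or miR-483 (the Igf2 locus), with any letter and either arm. The rule found 6 of the 942 mature miRNAs of the table, which are both arms of miR-335, miR-296 and miR-483. miR-675 was not analysed here. Small RNA was sequenced from the brain cortex of 4 mice of the B6C3 strain at 9 months of age. WT1 and WT2 are wild-type mice, and APP3 and APP4 are APPswe/PS1ΔE9 mice (AD mice), which carry transgenes for a mouse and human chimera of APP with the Swedish mutation and for human presenilin 1 lacking exon 9. Per the study, neurons of the central nervous system are the cells that both transgenes target. The mice are 2 sibling pairs, WT1 with APP4 and WT2 with APP3, so each pair holds a single mouse of each genotype. The names of the promoters and the sex of the mice are not given in the sources used here. The cortex was taken under pentobarbital anaesthesia.

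An imprinted gene is transcribed mainly from the copy inherited from a single parent, because the copies carry different marks set in the germ line. Mest, Nespas and Igf2 are expressed mainly from the paternal copy in the mouse, though not in every tissue. The miRNA hairpins at these loci are known to be imprinted with them. Which copy was active in these cortices was not examined here. A hairpin is cut into a duplex whose strands, named 5p and 3p, can each be loaded into an Argonaute protein, and the strand that is loaded persists while the other is degraded. miR-335 is known from studies of tumour spread, miR-296 from blood vessel growth, and miR-483 from tumours in which Igf2 is active. Igf2 is known in the adult brain mainly from the choroid plexus and the meninges rather than from neurons.

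The hairpins are shown first, because the comparison of their arms carries the main observation. They are printed 5′ to 3′ as RNA from RefSeq on GRCm38.p6, with both mature arms in capitals, the 5p arm before the 3p arm. All 3 were found by name.

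miR-335, chr6:30741299-30741396, plus strand: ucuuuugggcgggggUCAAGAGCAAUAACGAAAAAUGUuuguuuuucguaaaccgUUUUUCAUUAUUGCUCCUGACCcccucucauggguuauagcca
miR-296, chr2:174267047-174267125, minus strand: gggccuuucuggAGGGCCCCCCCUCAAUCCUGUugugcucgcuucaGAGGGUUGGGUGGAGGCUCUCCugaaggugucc
miR-483, chr7:142654924-142654996, minus strand: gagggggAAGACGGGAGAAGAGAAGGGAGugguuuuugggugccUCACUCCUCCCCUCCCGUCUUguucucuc

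On GRCm38, GENCODE vM21 places the hairpin of miR-335 in an intron of Mest (chr6:30723547-30748465) on the same strand, within 7 annotated transcripts and outside their exons. The hairpin of miR-483 lies likewise in an intron of Igf2 (chr7:142650766-142666816), within 7 of its transcripts and 1 transcript of the gene Gm49394. The hairpin of miR-296 lies outside every annotated gene. It is on the strand of Nespas (chr2:174281237-174295436), 14112 bases beyond the annotated end of that transcript, and 379 bases from the hairpin of miR-298 on the same strand.

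The mature miRNAs are shown with the seed, bases 2 to 8, in capitals, since the seed largely sets which transcripts a miRNA recognises.

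miR-335-5p: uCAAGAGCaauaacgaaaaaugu
miR-335-3p: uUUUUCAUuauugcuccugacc
miR-296-5p: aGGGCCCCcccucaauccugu
miR-296-3p: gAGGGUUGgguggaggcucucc
miR-483-5p: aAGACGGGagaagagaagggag
miR-483-3p: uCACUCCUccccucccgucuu

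Among the mature mouse miRNAs of RefSeq, none shares a seed with any of the 6, so each of them is a seed family of its own. The arms of miR-335 are poor in G and C, with 30.4% in the 5p arm and 36.4% in the 3p arm, where the median of the 754 rows matched to RefSeq by name is 50.0%. The arms of miR-296 are rich in G and C, with 66.7% and 68.2%. The arms of miR-483 lie between these and the median, with 54.5% and 61.9%. The nearest other mature miRNA differs from a member at 6 or more positions, for miR-335-5p at 8, when shifts of up to 2 bases are allowed. The methods of the study allow 2 mismatches and changes of 2 bases at each end for the counting of tags, and no mismatch to miRBase.

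The miRNA reads of a library numbered between 19048747 and 26085776, and levels are given as reads per 1000000 miRNA reads (RPM). At this depth 3 reads correspond to between 0.115 and 0.157 RPM. The 5 brain miRNAs used as a check of the tissue, among them miR-124-3p and miR-9-5p, summed to between 70428 and 78854 RPM, and the liver miRNA miR-122-5p was at most 4.45 RPM. One library stands apart. The 8 miRNAs of a list for epithelium (miR-96, miR-182, miR-183 and 5 miRNAs related to miR-200) summed to 5862 RPM in APP4 and to between 576 and 1024 RPM in the other 3 mice, so the spread, the arm ratio, the likeness of patterns and the genotype differences are also given without APP4. The sums of the lists for vessels and for blood, of 3 miRNAs each, were also lowest in APP4. The vessel list summed to 24863 and 25330 RPM in the WT mice and to 21765 and 17836 RPM in APP3 and APP4. The blood list summed to 3993 and 4626 RPM and to 4047 and 3206 RPM. Most of these sums came from miR-143-3p and miR-486-5p, with log2 fold changes of -0.52 and -0.35 for APP4 against WT1. The other vessel miRNAs, miR-145a-5p and miR-126-3p, had -0.13 and 0.41. The other blood miRNAs, miR-451a and miR-144-3p, were higher in APP4, with 0.67 and 1.55. In whole cortex, fewer cells of a type and less RNA per cell cannot be told apart.

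The loci differed widely in output. Both arms of miR-335 were abundant, those of miR-296 were low, and those of miR-483 had between 21 and 64 reads in a library. The order of the 6 miRNAs, miR-335-3p, miR-335-5p, miR-296-5p, miR-296-3p, miR-483-3p and miR-483-5p from high to low, was the same in each of the 4 libraries, and no neighbours in it overlapped over the 4 mice. miRNAs of 21 to 23 bases need no correction for length, but the ligation of adapters favours some sequences over others, so levels of different miRNAs are compared only roughly. Together the 6 made up between 0.129% and 0.143% of the miRNA reads.

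Values of single mice are given with WT1 before WT2 and APP3 before APP4. miR-335-3p had 944 and 987 RPM in the WT mice and 1051 and 789 RPM in the AD mice. It was lowest in APP4, and the other 3 mice lay close together. The sums of the vessel and blood lists were also lowest in APP4, though not every miRNA of these lists was. Their part in the level of miR-335-3p was not tested. The means of miR-335-3p were 966 ± 30.4 RPM in the WT mice and 920 ± 185 RPM in the AD mice (SD, n = 2 each). Among all miRNAs it ranked between 71 and 93 in the 4 libraries.

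miR-335-5p had 330 and 426 RPM in the WT mice and 337 and 478 RPM in the AD mice. The mouse that was lowest for the 3p arm was thus highest for the 5p arm, and the genotypes overlapped. The means were 378 ± 67.7 RPM in the WT mice and 408 ± 99.4 RPM in the AD mice (SD, n = 2 each).

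miR-296-5p had 10.7 and 14.1 RPM in the WT mice, from 278 and 312 reads, and 19.2 and 12.3 RPM in the AD mice, from 408 and 234 reads. APP3 stood above the other mice, and APP4 lay between the WT mice. miR-296-3p had 3.95 and 3.03 RPM in the WT mice and 4.33 and 3.57 RPM in the AD mice, with between 67 and 103 reads in a library. Its highest value was again in APP3.

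miR-483-3p had 64 and 40 reads in the WT mice (2.45 and 1.81 RPM) and 42 and 41 reads in the AD mice (1.97 and 2.15 RPM). miR-483-5p had 28 and 27 reads in the WT mice (1.07 and 1.22 RPM) and 21 and 26 reads in the AD mice (0.987 and 1.36 RPM). Neither arm separated the genotypes. All counts were above the 3 reads taken as the smallest that can be shown. A list of 4 miRNAs of the choroid plexus and of ciliated cells, with miR-204-5p and miR-211-5p, summed to 3802 and 4687 RPM in the WT mice and to 3819 and 3334 RPM in the AD mice, and none of the 4 was at 0. Most of the sum was miR-204-5p, with log2 fold changes of -0.26 in APP4 against WT1 and -0.33 in APP3 against WT2. In RPM the other miRNAs of the list were higher in the AD mouse of both pairs. The median log2 fold change over all miRNAs was 0.21 in APP4 against WT1 and 0.05 in APP3 against WT2. In the same order miR-211-5p had 0.71 and 0.97, miR-34c-5p 0.44 and 0.07, and miR-449a-5p 0.23 and 0.04. The part of this list in the level of miR-483 was not tested.

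**Figure D1:**
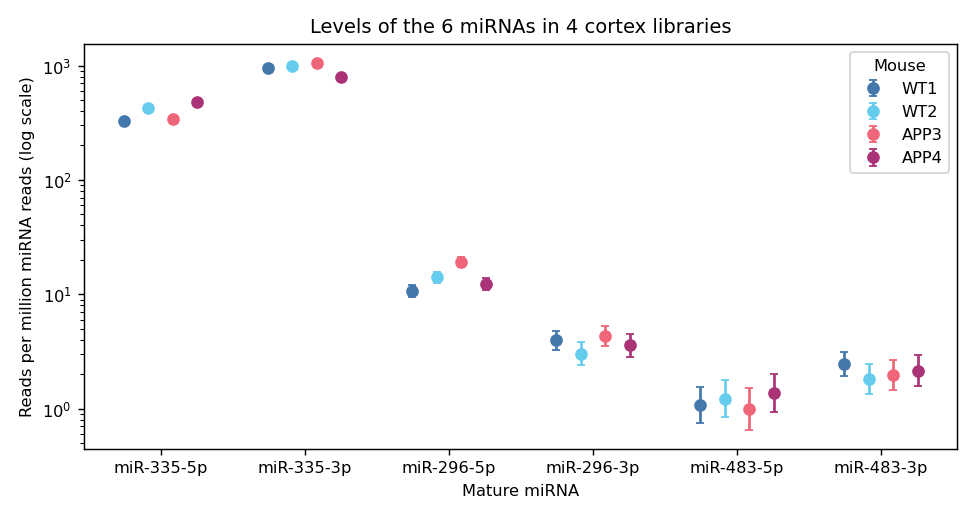
Level of each of the 6 miRNAs (x axis) in RPM on a log scale (y axis) in the 4 mice, with 95% Wilson intervals that cover counting error only and are smaller than the points for miR-335. The members span from 0.987 to 1051 RPM, and the WT and AD mice overlap for each of them.

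The spread over the mice was compared with the counting error alone. For the arms of miR-483 the counts of the 4 libraries differed no more than counting allows, and the chi-square over its degrees of freedom was 0.495 for the 5p arm and 0.862 for the 3p arm. A difference between mice was therefore not detectable at this depth for miR-483. The coefficient of variation over the 4 mice was 14.3% for miR-483-5p, where counting error alone gives 19.8%. The same quotient was 1.78 for miR-296-3p, a little above counting error, and 22.0 for miR-296-5p. The arms of miR-335 had a counting error of 1.08% and 0.691%, so nearly all of their spread lay between the mice or their libraries.

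The coefficient of variation of miR-335-5p was 18.2%, against a median of 15.2% for the 145 miRNAs between 50 and 500 RPM. For miR-335-3p it was 11.8%, against 12.5% for the 74 miRNAs between 500 and 5000 RPM. That of miR-296-5p was 26.3%, against 16.1% for the 172 miRNAs between 5 and 50 RPM. Over the 4 mice miR-296-5p thus varied most of the 6, but this rested on APP3. Without APP3 its coefficient was 14.1%, below the 18.3% of miR-335-5p.

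The arms of a hairpin come from the same transcript, and their ratio within a library does not depend on how the libraries are scaled. In miR-335 the 3p arm had more reads than the 5p arm in each mouse, but the balance was not constant. The 5p arm took 25.9% of the 33240 reads of the hairpin in WT1 (95% Wilson interval 25.4 to 26.4) and 30.1% in WT2 (29.6 to 30.6). In the AD mice it took 24.3% in APP3 (23.8 to 24.8) and 37.7% in APP4 (37.1 to 38.3). No 2 of these intervals overlapped, and APP4 was the farthest from the others. For each read of the 5p arm there were 2.86 and 2.32 reads of the 3p arm in the WT mice and 3.12 and 1.65 in the AD mice.

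In RPM, the sum of both arms of miR-335 varied less over the 4 mice than either arm. It was 1274 and 1413 RPM in the WT mice and 1388 and 1267 RPM in the AD mice, a coefficient of variation of 5.68% over the 4 mice, where that of the 3p arm was 11.8% and that of the 5p arm 18.2%. Against the 3p arm this rested on APP4. Without APP4 the coefficient was 5.45% for the sum, 5.39% for the 3p arm and 14.6% for the 5p arm. The means were 1344 ± 98.1 RPM in the WT mice and 1328 ± 85.8 RPM in the AD mice (SD, n = 2 each). Unlike the arm ratio, the sum and these coefficients depend on how the libraries are scaled. They are given without TMM, whose factors ran from 0.92 in WT1 to 1.10 in APP4.

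The sibling pairs moved in opposite directions. The 5p share was 11.8 percentage points higher in APP4 than in WT1, and fell by 5.82 points from WT2 to APP3. Between the WT mice it differed by 4.24 points and between the AD mice by 13.4 points. The mean share was 28.0% ± 2.996 in the WT mice and 31.0% ± 9.49 in the AD mice (SD, n = 2 each), a difference of 3.02 points that was smaller than the spread within the AD mice (two-sided exact permutation test, p = 1.0, where 2 against 2 mice allow no p below 0.333). The difference rested on single mice. It was -3.70 points without APP4, 9.73 without APP3, 5.13 without WT2 and 0.896 without WT1. APP4 is also the mouse in which the list for epithelium summed highest, and the part of that list in the arm ratio was not tested.

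**Figure D2:**
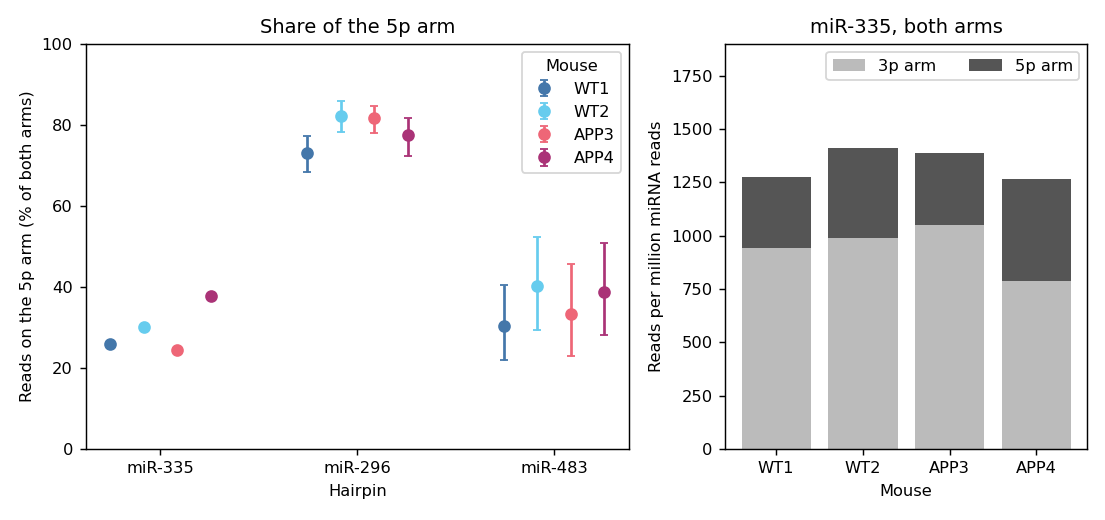
Left, share of the 5p arm in the reads of each hairpin (y axis, percent of both arms) in the 4 mice, with 95% Wilson intervals. Right, RPM of the arms of miR-335 stacked for each mouse. The 5p share of miR-335 runs from 24.3% in APP3 to 37.7% in APP4 while the stacked sum stays between 1267 and 1413 RPM.

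The arm ratio of miR-335 was set beside that of the other hairpins. In 108 hairpins each arm had at least 100 reads in each library. The log2 ratio of 5p to 3p of miR-335 spanned 0.92 over the 4 mice, which ranked 16 among the 108, with a median span of 0.60. Without APP4 it spanned 0.42, which ranked 67, below the median of 0.51. Between APP4 and WT1 it rose by 0.80, which ranked 8 in size, against a median size of 0.29. Between APP3 and WT2 it was -0.42, which ranked 37, against a median size of 0.25. Between WT2 and WT1 it was 0.30, which ranked 61, against a median size of 0.34. The largest of these differences was between the AD mice. It was 0.92 for APP4 against APP3, which ranked 6, against a median size of 0.28.

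The 5p arm had its highest ratio in APP4 for 28 of the 108 hairpins, and the median change from WT1 to APP4 was -0.05. Over these hairpins as a whole, then, the ratio of the arms did not shift toward the 5p arm from WT1 to APP4. Since the arms of miR-335 are poor in G and C, that share was compared with the differences between libraries. The 326 miRNAs used were matched to RefSeq by name and reached 10 RPM on average. Spearman's rho between the share of G and C and the log2 fold change was -0.04 for APP4 against WT1 and 0.16 for APP3 against WT2. It was 0.13 for WT2 against WT1 and -0.25 for APP4 against APP3. These are correlations across miRNAs, which share the library and are not replicates. They concern levels of single miRNAs and not arm ratios, and both arms of miR-335 are poor in G and C.

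**Figure D3:**
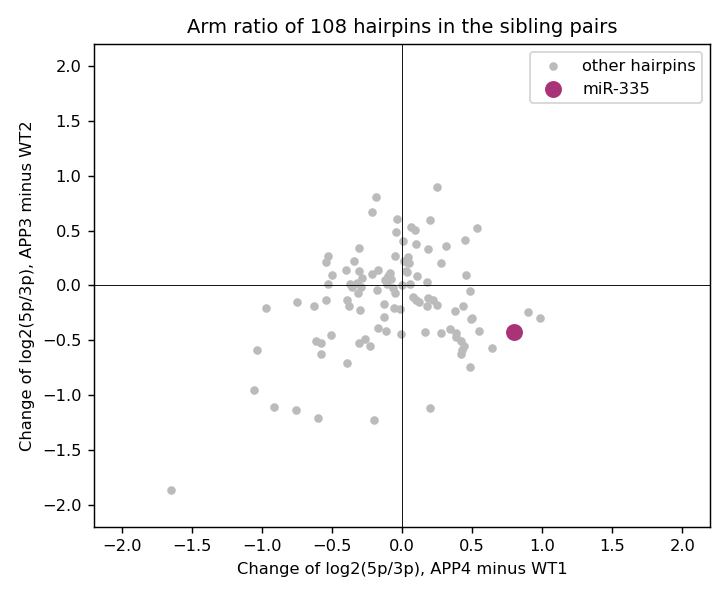
Change of log2(5p/3p) from WT1 to APP4 (x axis) and from WT2 to APP3 (y axis) for 108 hairpins, each a point, with miR-335 enlarged. miR-335 lies at 0.80 and -0.42, toward the right of the points and below 0 on the y axis.

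In miR-296 the 5p arm had most of the reads. In the WT mice its share was 73.0% (95% Wilson interval 68.3 to 77.2) and 82.3% (78.2 to 85.8), and in the AD mice it was 81.6% (78.0 to 84.8) and 77.5% (72.4 to 81.8). Only WT1 and WT2, and WT1 and APP3, had intervals that did not overlap. The genotype means differed by 1.90 points, with an SD of 6.62 in the WT mice and 2.91 in the AD mice (exact permutation test, p = 1.0). In miR-483 the 3p arm had most of the reads. The 5p share was between 30.4% and 40.3%, from 63 to 92 reads in all, and every interval overlapped every other. Its genotype means differed by 0.703 points (SD 6.97 and 3.87, exact permutation test, p = 1.0).

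miR-298, the neighbour of miR-296, is studied as a regulator of the β-secretase BACE1. Its 5p arm had 386 and 601 RPM in the WT mice and 456 and 382 RPM in the AD mice. It had 36.2 and 42.5 times the reads of miR-296-5p in the WT mice, and 23.8 and 31.1 times in the AD mice. The neighbours were thus not highest in the same mouse, since miR-298-5p was highest in WT2 and miR-296-5p in APP3. The arms of miR-298 were far less balanced than those of the other hairpins here. The 5p arm took between 99.94% and 99.95% of the reads, and its 3p arm had 4 to 6 reads in a library.

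The first comparison asks which miRNAs differ between an AD mouse and its WT sibling. The test and both limits are those of the study's methods. Fisher's exact test (two-sided) was applied to the reads of each miRNA as counted, the FDR was taken by Benjamini and Hochberg, and a call needed both a 1.5-fold change and an FDR below 0.05. The methods also name a scaling to all miRNA reads. With values scaled to 1000000 reads before the test, 32 miRNAs were called between APP4 and WT1 and 23 between APP3 and WT2, where the reads as counted gave 104 and 61. None of the 6 members was called either way. The test compares 2 libraries and not the genotypes, and a pair has no replicate check. The SE given with these log2 fold changes covers counting error only.

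Between APP4 and WT1 none of the 6 miRNAs was called, where 11.6% of the 899 miRNAs tested were. At an FDR under 0.05 without the limit on the fold, 2 of the 6 differed, against 40.3% of all. miR-335-5p was higher in APP4, with a log2 fold change of 0.54 (SE 0.02, FDR 3.86e-133), a 1.45-fold change just under the limit. miR-335-3p was lower, with -0.26 (SE 0.01, FDR 1.07e-67). The other 4 did not pass the test. The log2 fold change was 0.21 for miR-296-5p (SE 0.13, FDR 0.229) and -0.14 for miR-296-3p (SE 0.22, FDR 0.693). With library sizes corrected by TMM each log2 fold change of this pair moves by -0.25. That of miR-335-5p is then 0.28, that of miR-335-3p is -0.51, and that of miR-296-5p changes sign, to -0.05.

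Between APP3 and WT2 none of the 6 was called, against 6.81% of 896 miRNAs. At an FDR under 0.05, 3 of the 6 differed, against 36.0% of all. miR-335-5p was lower in the AD mouse, with a log2 fold change of -0.34 (SE 0.02, FDR 5.08e-49), and miR-335-3p was slightly higher, with 0.09 (SE 0.01, FDR 3.21e-10). miR-296-5p was higher, with 0.44 (SE 0.11, FDR 0.000194). miR-296-3p had 0.51 (SE 0.23) with an FDR of 0.0853. The log2 fold changes of the arms of miR-483 were -0.30 (SE 0.42) and 0.12 (SE 0.32), and neither passed the test. TMM moved the values of this pair by -0.02.

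Mice of one genotype differed as well. Between WT2 and WT1, 0 of the 6 miRNAs were called, against 10.1% of 879, and 3 differed at an FDR under 0.05, against 40.5%. Between APP4 and APP3, 1 of the 6 was called, against 8.05% of 907, and 3 differed at an FDR under 0.05, against 35.2%. The miRNA called was miR-296-5p, with a log2 fold change of -0.64 (SE 0.12, FDR 1.58e-07), higher in APP3. miR-335-5p and miR-335-3p also differed in opposite directions between the AD mice, with 0.50 (SE 0.02) and -0.41 (SE 0.02). Between the WT mice the value of miR-335-5p was 0.37 (SE 0.02), and miR-335-3p had 0.06 (SE 0.01), which turns to -0.04 with TMM.

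**Figure D4:**
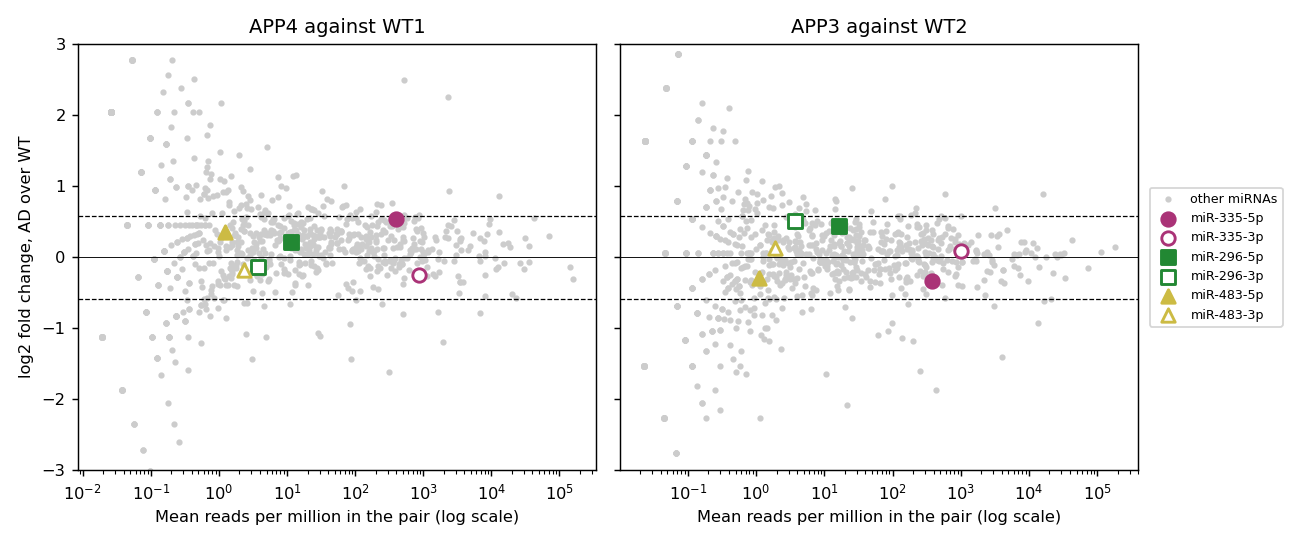
Log2 fold change of the AD mouse over its WT sibling (y axis) against the mean RPM of the pair (x axis, log scale) for each miRNA with a read, with the 6 members enlarged and dashed lines at 1.5-fold. The axis ends at 3 in either direction and leaves out 37 points over both panels. All 6 members lie between the dashed lines in both pairs, and miR-335-5p is the closest to a line in APP4 against WT1.

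The second comparison asks whether the genotypes differ over the mice. edgeR's quasi-likelihood test with TMM and Benjamini-Hochberg adjustment was fitted to all miRNAs, of which 623 passed the filter on low counts, all 6 members among them. None of the 6 had an adjusted p under 0.05, against 0.0% of the 623, and none had an unadjusted p under 0.05, against 5.78%. DESeq2 likewise gave 0 of the 6 at either limit. In RPM the genotypes overlapped for each of the 6, whereas for 36.0% of the 623 both AD mice were above or below both WT mice.

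The fitted differences were small beside their errors. For miR-335-5p the log2 fold change of the AD over the WT mice was -0.03 (SE 0.22, adjusted p = 0.995), and for miR-335-3p it was -0.20 (SE 0.22, adjusted p = 0.958). The largest value was that of miR-296-5p, with 0.23 (SE 0.29, adjusted p = 0.958). miR-296-3p had 0.04 (SE 0.28), miR-483-5p -0.11 (SE 0.33) and miR-483-3p -0.20 (SE 0.30). The median size of the log2 fold change over the 623 miRNAs was 0.19. The sign of each of the 6 depended on single mice. Without WT1 miR-483-3p turned to 0.09, and without WT2 miR-335-5p turned to 0.14 and miR-296-3p to -0.15. Without APP3 miR-335-5p was 0.15, miR-296-5p -0.21, miR-296-3p -0.18 and miR-483-5p 0.05, and without APP4 miR-335-3p was 0.04. Without TMM miR-335-5p had 0.11 and miR-483-5p 0.03.

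The miRNAs whose levels moved most like those of a member were sought among those with a mean of at least 50 RPM, by the root mean square difference of log2 RPM centred over the 4 libraries. For miR-335-5p the nearest were miR-137-3p with 0.077, miR-3099-3p with 0.083 and miR-674-5p with 0.086, where the median over 251 candidates was 0.257. miR-137-3p, a miRNA of neuronal development, had 270 and 329 RPM in the WT mice and 299 and 375 RPM in the AD mice. The other arm of the same hairpin, miR-335-3p, was only number 202 of the 251 in likeness, with 0.354. Without APP4 it was number 91, with 0.179, and miR-137-3p was number 21, with 0.081.

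For miR-335-3p the nearest were miR-127-3p with 0.031, miR-30a-5p with 0.077 and miR-873a-5p with 0.101. miR-127-3p comes from the imprinted Rtl1 locus of chromosome 12 and had the most reads of the other imprinted miRNAs, with 174719 and 172740 RPM in the WT mice and 191418 and 140548 RPM in the AD mice. It was thus lowest in APP4 and highest in APP3, as was miR-335-3p. Without APP4 its difference was 0.034, number 7 of 251, where the median was 0.153. For miR-296-5p the nearest were miR-3475 with 0.086, miR-379-3p with 0.106 and miR-667-3p with 0.109, where the median over 252 candidates was 0.353. Without APP3, miR-3475 was number 25, with 0.091. With 4 libraries, such likeness is a description of these mice.

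Other imprinted miRNAs were taken from a list of miR-298, miR-184 and the miRNAs of the Gtl2, Rian and Mirg transcripts of chromosome 12, 102 rows in all. They made up between 20.8% and 26.1% of the miRNA reads. Between APP4 and WT1, 10 of the 101 tested were called, 9 higher and 1 lower, beside 11.6% of all miRNAs. The median log2 fold change of the list was 0.21, beside 0.21 over all miRNAs. The calls and both medians are before TMM, which moves each log2 fold change of this pair by -0.25. Between APP3 and WT2, 3 of 101 were called higher and 3 lower, beside 6.81% of all, with a median of 0.04 beside 0.05. Between the WT mice 12 of 101 were called, beside 10.1% of all, and between the AD mice 7 of 102, beside 8.05%. In edgeR's test 0 of the 92 tested had an adjusted p under 0.05, with a median log2 fold change of 0.01 beside -0.02 over all.

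miR-184-3p, from an imprinted locus of chromosome 9, had 89.5 and 58.5 RPM in the WT mice and 63.1 and 66.4 RPM in the AD mice. WT1 stood above the other 3 mice. Of the 4 comparisons it was called between the WT mice alone, with a log2 fold change of -0.61 (SE 0.05, FDR 8.49e-35), and miR-298-5p was called there too, with 0.64 (SE 0.02). Neither was called in a sibling pair.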

How the data were processed

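Per the labels and the methods of the study, small RNA of 4 cortices was sequenced, and the authors kept reads of 18 to 35 bases, matched them to miRBase with Bowtie and counted mature and variant reads in the CLC workbench. The authors deposited raw read counts per mature miRNA and, beside them, clean-read RPM, headed TPM, which were used here only to recover the clean reads as another library size. The processing notes of the submitters name the build mm9 and the methods GRCm38, and the table holds no coordinates. Positions and sequences here are those of RefSeq and GENCODE vM21 on GRCm38.

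Counts were scaled to the sum of each library. Pairs of libraries were compared by Fisher's exact test (scipy 1.17.1), with 0.5 read added for log2 fold changes, and the genotypes by edgeR 4.0.16 in R 4.3.3, with DESeq2 1.42.0 as the other tool. An edgeR SE was obtained by dividing the log2 fold change by the root of F. Intervals cover counting error only, since reads had no molecular identifiers. The sibling pairs come from the methods, and their deviations from the genotype means correlated with r = 0.235 over 252 miRNAs. Scripts were tested on simulated data. The members, lists and tests were chosen with earlier results of these data known. The miRNAs named are the members, miR-298, miR-184, miRNAs sharing a seed (none were found), the 3 most alike in pattern, and the most abundant imprinted miRNA.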

Additional observations from a re-analysis of the deposited data

Results flagged for a closer look

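The arms of miR-335 changed in opposite directions within each sibling pair, with an FDR under 0.05 in Fisher's exact test. Of all miRNAs, 40.3% passed that limit in APP4 against WT1 and 36.0% in APP3 against WT2. Neither arm was called with the added limit of 1.5-fold. Each arm also changed in the opposite direction in the second pair. miR-335-5p had a log2 fold change of 0.54 in APP4 against WT1 and of -0.34 in APP3 against WT2. miR-335-3p had -0.26 and 0.090. The share of the 5p arm in the reads of the hairpin rose by 11.8 percentage points from WT1 to APP4 and fell by 5.82 points from WT2 to APP3. With 1 mouse of each genotype in a pair, this contrast of the pairs was not tested. Between the AD mice the share differed by 13.4 points, and between the WT mice by 4.24 points.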

How the results depend on the processing

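The number of members called stayed at 0 in both sibling pairs and between the WT mice with TMM library sizes, with clean reads as library size, with values scaled to 1000000 reads, with a limit of 2-fold and with a minimum of 10 RPM. Between the AD mice the 1 call, miR-296-5p, became 0 with the values scaled to 1000000 reads and with the limit of 2-fold, and it held with the others. That scaling lowered the calls over all miRNAs from 104 to 32 in APP4 against WT1 and from 61 to 23 in APP3 against WT2. Values rounded after that scaling were equal in both libraries, a log2 fold change of 0, for miR-296-3p in APP4 against WT1 and APP3, and for both arms of miR-483 in each comparison. TMM turned the sign of miR-296-5p in APP4 against WT1 (-0.048), of miR-335-3p in WT2 against WT1 (-0.041) and of miR-483-3p in APP4 against APP3 (-0.0061).

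Between the genotypes 0 members were called with DESeq2, with no filter, without TMM, with the sibling pair as replicate block and without each mouse, with adjusted p between 0.853 and 0.9998 over these alternatives. The block changed no call of a member. Without TMM the log2 fold change was 0.11 for miR-335-5p and 0.032 for miR-483-5p, both with a changed sign. With each mouse left out in turn it lay between -0.24 and 0.15 for miR-335-5p, -0.49 and 0.039 for miR-335-3p, -0.21 and 0.56 for miR-296-5p, -0.18 and 0.29 for miR-296-3p, -0.30 and 0.052 for miR-483-5p, and -0.40 and 0.094 for miR-483-3p. The difference of the 5p share then lay between -3.70 and 9.73 points for miR-335, -2.78 and 6.58 for miR-296, and -4.23 and 5.63 for miR-483. In alternatives chosen after seeing the data, the coefficient of variation of both arms of miR-335 together lay between 5.20% and 6.24% with each mouse left out in turn, and that of miR-335-3p between 5.39% and 14.5%.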
